A study of Mus musculus with 4 samples.

Results

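The mature mouse miRNA arms mmu-miR-126-3p, mmu-miR-126-5p, mmu-miR-139-5p, mmu-miR-139-3p, mmu-miR-221-3p and mmu-miR-222-3p (written below without the species prefix) were examined in the stromal vascular fraction (SVF) of visceral white adipose tissue (visWAT). They were taken as all non-control spots carrying these names, and they were 6 of the 1247 miRNAs on the array. The SVF holds the stromal, vascular and blood cells that sediment when digested fat is spun and the adipocytes float. Adult female C57BL/6 mice aged 8 weeks, with no genetic change, received 1 mg/kg CL-316,243 in PBS or PBS alone (vehicle) for 3 days, and CL-316,243 (CL) activates the β3-adrenergic receptor and induces browning of white fat. The strain entries of the samples run from C57/BL6 to C57/BL9, whereas the protocol gives C57BL/6 for all mice. RNA was hybridized on 4 one-colour Agilent mouse miRNA arrays, vehicle 1, vehicle 2, CL 1 and CL 2. Each array carried RNA from 5 mice, so that the spread between the 2 arrays of a group is that between pools, or a technical one, and not between single mice. The question was whether miRNAs linked to endothelium and to blood vessel growth fell together after CL treatment. In such bulk RNA, fewer cells of a type and less miRNA per cell cannot be told apart.

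A miRNA hairpin is cut into a 5p and a 3p arm, and the bases near the start of the mature arm, the seed, pair with target mRNAs and lower their output. The miR-126 hairpin lies in Egfl7, a gene of endothelial cells, and miR-126-3p supports vessel integrity and the response to VEGF by limiting Spred1 and Pik3r2, which dampen that signal. Its partner miR-126-5p acts on Dlk1 in endothelial cells, miR-139-5p is known for restraining cell migration and targets Cxcr4, and miR-221 and miR-222 limit Kit and Cdkn1b and are expressed by many cell types besides endothelium.

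The mature sequences are shown because they define what the probes could detect and which members share a seed. They were taken from RefSeq (GRCm38.p6), in which 5 of the 6 arms were matched, and capitals mark the seed, bases 2 to 8 from the 5′ end.
miR-126-3p (RefSeq miR-126a-3p): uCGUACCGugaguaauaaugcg
miR-139-5p: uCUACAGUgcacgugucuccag
miR-139-3p: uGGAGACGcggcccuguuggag
miR-221-3p: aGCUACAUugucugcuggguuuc
miR-222-3p: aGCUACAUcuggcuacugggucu
The arm miR-126-3p lies at chr2:26591402-26591423 on the + strand, within Egfl7. The arms of miR-139 lie at chr7:101475382-101475403 and chr7:101475418-101475439 on the + strand, within Pde2a, a phosphodiesterase gene. On the − strand of the X chromosome, miR-221-3p lies at chrX:19146307-19146329 and miR-222-3p at chrX:19146901-19146923. The latter hairpins stand 504 bases apart, in no other annotated gene, and are known to be made from a common transcript.

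The sequences fell into 4 seed groups, since miR-221-3p and miR-222-3p share theirs. Their first 8 bases are the same, and 11 of their 23 positions hold the same base. No probe of one was found at full length in the complement of the other. Whether a probe also binds the other arm in part was not tested. The longest probes of this pair and of miR-126-5p are printed below, with capitals marking bases that pair with the seed.
miR-221-3p probe, opposite bases 4 to 23: gaaacccagcagacaATGTA
miR-222-3p probe, opposite bases 8 to 21: acccagtagccagA
miR-126-5p probe, matched within the Mir126a hairpin: cgcgtaccaaaagtaataatg
Each arm was read by 40 spots per array through 2 probes of different length, or 3 for miR-139-5p. All 13 probes were found in the hairpin of their miRNA, and 11 in the mature arm given by RefSeq. The probes of miR-139-3p and the shorter probe of miR-222-3p reach no seed base.

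All 4 arrays lay on 1 slide, the vehicle arrays in row 1 and the CL arrays in row 2, so that row and treatment cannot be told apart. Vehicle 1 and CL 1 shared a slide column, as did vehicle 2 and CL 2. No spot was saturated, and 386 to 431 miRNAs were detected per array, fewest on CL 1. The 6 arms were detected on all 4 arrays.

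The miR-126 and miR-139 arms fell after CL treatment at an unadjusted p of 0.05, whereas miR-221-3p and miR-222-3p, at log2 changes of −0.13 and 0.17, did not pass this threshold. Of the 6 arms, 4 were thus lower by limma, beside 16.2% of all 425 tested miRNAs, and none was higher, beside 18.8%. No miRNA passed a Benjamini-Hochberg adjusted p of 0.05 in limma, so that 0% of all tested were called, against 149 (35.1%) at an unadjusted p of 0.05. With the slide column as a block, the same 4 arms passed the adjusted threshold in the lower direction, beside 9.41% of all tested miRNAs (20.2% in either direction). The block raised the standard error from 0.163 to 0.189 at miR-126-3p and from 0.200 to 0.216 at miR-126-5p, and lowered it at both miR-139 arms. At the miR-126 arms, where the log2 change is the same in both fits, the lower p with the block thus did not come from a smaller standard error. It came from more degrees of freedom in the limma fit. The blocked fit uses the same 4 arrays and is no separate evidence. Without overlap, the CL arrays were the lower ones at 5 of the 6 arms, beside 34.8% of all tested miRNAs, and the higher ones at miR-222-3p, beside 38.1%. The median log2 change was −0.80 over the 6 arms and −0.0079 over all tested miRNAs, whose quartiles were −0.33 and 0.34.

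The endothelial arm miR-126-3p had log2 signals of 13.91 and 13.79 in vehicle 1 and vehicle 2, and of 12.31 and 12.64 in CL 1 and CL 2. Both CL arrays were lower than both vehicle arrays by over 1 log2 unit. The group means were 13.85 ± 0.086 (SD, n = 2) and 12.48 ± 0.23 (SD, n = 2), and the CL level was 0.387 of the vehicle level. The log2 change of −1.37 had a 95% interval of −1.81 to −0.93 in limma, with an unadjusted p of 0.000685, an adjusted p of 0.0917 and an adjusted p of 0.0113 with the slide column as a block. Counted from the largest decrease, this change ranked at place 7 of the 425.

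Its partner arm miR-126-5p, which is cut from the other side of the same hairpin, had log2 signals of 7.14 and 6.86 in the vehicle arrays and of 6.00 and 6.40 in CL 1 and CL 2. The groups did not overlap, and CL 1 was the lowest array as it was for miR-126-3p. The means of 7.002 ± 0.20 and 6.20 ± 0.28 (SD, n = 2 each) gave a log2 change of −0.80 (95% interval −1.34 to −0.27), with an unadjusted p of 0.0131 and an adjusted p of 0.102 from limma, and 0.0480 with the slide column as a block. Within the column of vehicle 1 and CL 1 the log2 difference was −1.14, and within the other column it was −0.46. Both miR-126 arms thus differed more within the first column, where miR-126-3p changed by −1.60 against −1.14 in the second.

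The second hairpin gave a decrease of similar size in its 5p arm. The log2 signals of miR-139-5p were 8.01 and 8.38 in the vehicle arrays and 6.76 and 7.12 in the CL arrays, so that every CL value was below every vehicle value. The means were 8.20 ± 0.26 and 6.94 ± 0.25 (SD, n = 2 each), the CL level being 0.418 of the vehicle level. The log2 change was −1.26 (95% interval −1.81 to −0.71), with an unadjusted p of 0.00257 and an adjusted p of 0.0917 from limma, and 0.00981 with the slide column as a block. The differences of −1.25 and −1.26 within the slide columns were nearly equal, and the change ranked at place 10 from the largest decrease.

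The 3p arm of this hairpin, miR-139-3p, had log2 signals of 5.88 and 6.40 in the vehicle arrays and of 5.29 and 5.38 in the CL arrays. The CL arrays were again the lower ones, although the vehicle arrays lay 0.37 log2 units (SD, n = 2) around their mean of 6.14. From there to the CL mean of 5.34 ± 0.063 (SD, n = 2) the log2 change was −0.81 (95% interval −1.37 to −0.25), with an unadjusted p of 0.0150 and an adjusted p of 0.102 from limma, and 0.0347 with the slide column as a block. This arm was close to the array's background in the CL arrays, where 24 of its 40 spots on CL 1 and 37 on CL 2 were well above background, against all 40 on the vehicle arrays.

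**Figure D1:**
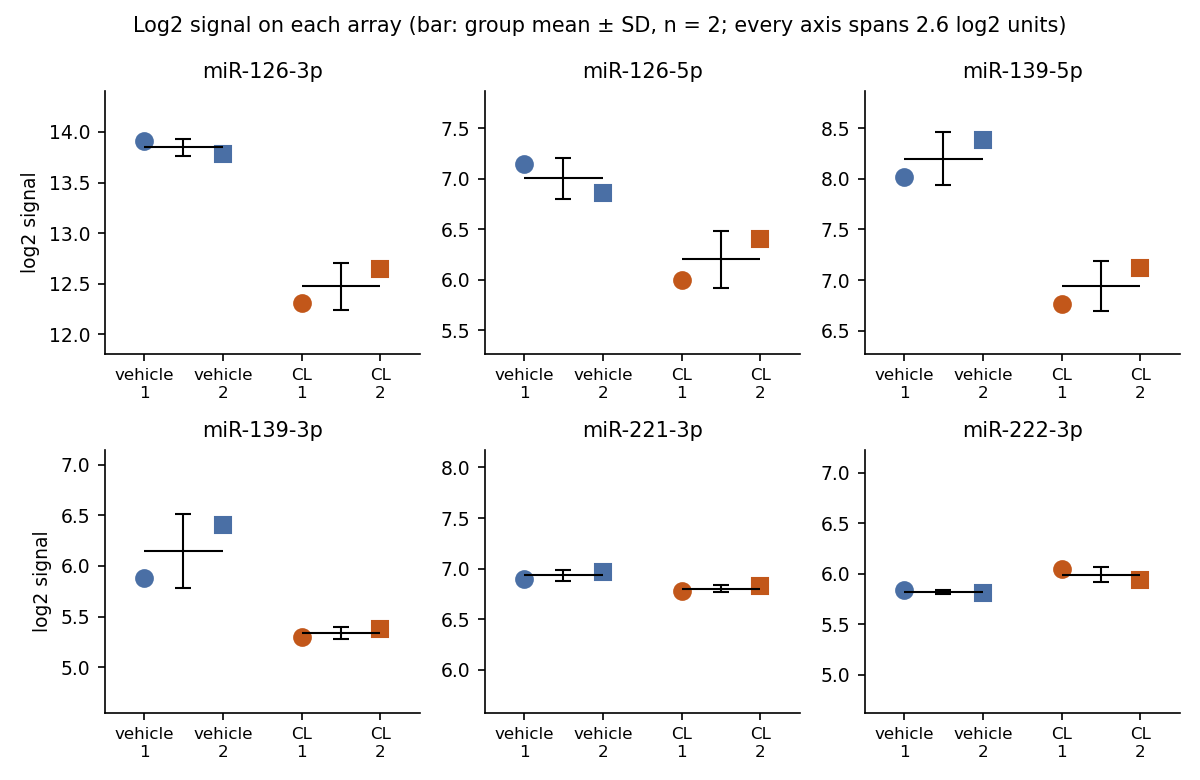
Each panel plots the log2 signal (vertical axis) of 1 arm on the 4 arrays (horizontal axis), circles for replicate 1 and squares for replicate 2, with lines for the group mean and bars for its SD (n = 2). The CL points of both miR-126 and both miR-139 arms lie clearly below the vehicle points, from 13.85 to 12.48 on average at miR-126-3p, while those of miR-221-3p and miR-222-3p lie within 0.3 log2 units of them.

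The pair from the X chromosome, whose members share a seed, differed in sign. Log2 signals of miR-221-3p were 6.90 and 6.97 in the vehicle arrays and 6.78 and 6.82 in the CL arrays. The CL arrays were the lower ones, by a small margin. Between means of 6.93 ± 0.053 and 6.80 ± 0.033 (SD, n = 2 each), the log2 change of −0.13 had a 95% interval of −0.44 to 0.18, with an unadjusted p of 0.314 and an adjusted p of 0.443 from limma, and 0.606 with the slide column as a block.

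For miR-222-3p, log2 signals were 5.84 and 5.81 in the vehicle arrays and 6.04 and 5.94 in the CL arrays. Here the CL arrays were the higher ones. The means of 5.82 ± 0.018 and 5.99 ± 0.075 (SD, n = 2 each) gave a log2 change of 0.17 (95% interval −0.15 to 0.48), with an unadjusted p of 0.224 and an adjusted p of 0.348 from limma, and 0.510 with the slide column as a block. In limma without the block, the interval of neither arm reached a log2 change of −0.5. This bound need not hold under other processing. The block raised the standard error at miR-221-3p from 0.117 to 0.167. With the linear trend on probe composition and length removed, the log2 change of miR-221-3p was −0.41. The 5p arms of these hairpins, miR-221-5p and miR-222-5p, were detected on no array, with log2 signals of 3.75 to 3.92. Seeds could be compared for the 1018 of 1247 miRNAs on the array that matched a RefSeq sequence. Among these, miR-1928 also had the seed of this pair, and none shared a seed with the miR-126-3p or miR-139 arms. The log2 change of miR-1928 was −0.46, which passed the unadjusted threshold (limma, adjusted p = 0.136).

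**Figure D2:**
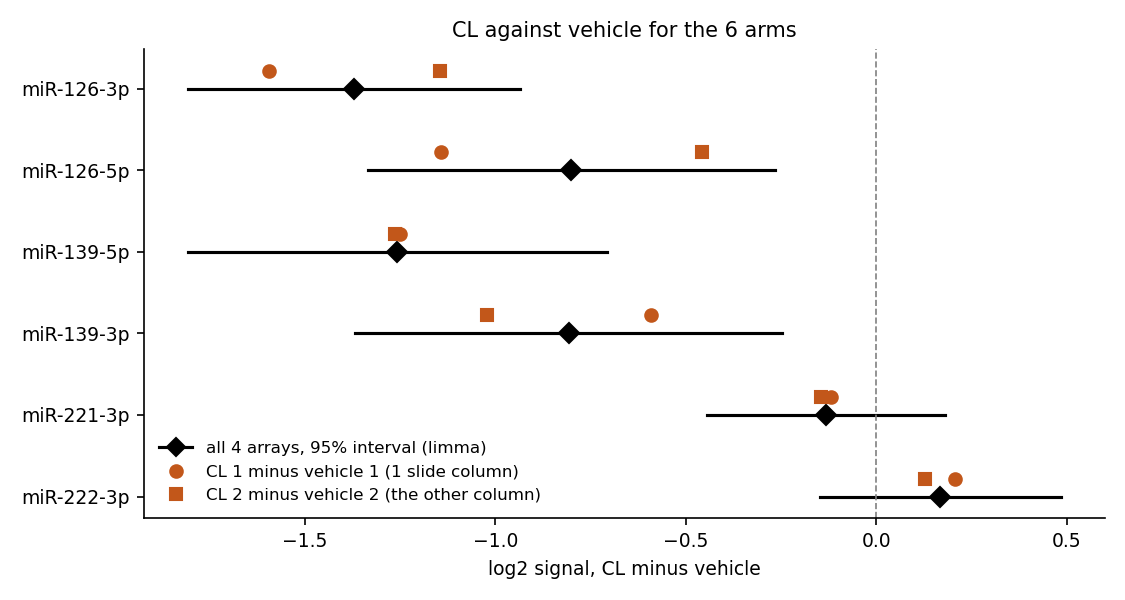
The horizontal axis gives the log2 signal of CL minus vehicle for each arm, with a diamond and a line for the limma estimate and its 95% interval over 4 arrays, and a circle and a square for the difference within either slide column. The intervals of the upper 4 arms end below 0, at −0.25 or lower, and those of miR-221-3p and miR-222-3p include 0.

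Whether arms changed by unequal amounts was asked for 4 pairs, from the difference of their log2 signals within each array. The difference between miR-126-3p and miR-221-3p shrank by 1.24 log2 units, from 7.01 and 6.81 in the vehicle arrays to 5.53 and 5.82 in the CL arrays. The groups did not overlap, and the shift was larger than the 0.196 between the vehicle arrays and the 0.283 between the CL arrays. The arms of a single hairpin changed unequally in the arrays too, miR-126-3p by 0.57 log2 units more than miR-126-5p and miR-139-5p by 0.45 more than miR-139-3p. The change of miR-221-3p was 0.30 log2 units lower than that of miR-222-3p. With these values, in each pair both CL arrays lay on 1 side of both vehicle arrays, which gave p = 0.333 in a two-sided exact permutation test, also after Benjamini-Hochberg adjustment over the 4 pairs. This is the smallest p that 2 against 2 arrays allow, so that no pair could pass 0.05. The difference between the miR-139 arms depended on the values used, at −0.24 with scaling to the 75th percentile, −0.25 in the deposited log2 values and −0.85 with the longest probes alone. The groups of this pair overlapped in the former 2 (exact permutation p = 0.667 in each). Without vehicle 1 the difference was −0.38, and both CL arrays lay below vehicle 2.

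The spots were then compared one by one, without any normalization. At miR-126-3p, miR-126-5p and miR-139-5p, all 40 spots were dimmer on both CL arrays than on both vehicle arrays. This was so for every spot of 12.2% of the 425 tested miRNAs. At miR-139-3p 36 of 40 spots were dimmer on both CL arrays, and at miR-221-3p 34. At miR-222-3p, 1 spot was dimmer on both CL arrays and 10 were brighter on both. Of all 17000 spots of tested miRNAs, 36.8% were dimmer and 22.8% brighter on both CL arrays. Spots of an arm share the RNA of their array and are no replicates of the treatment.

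Probes of different length for an arm gave changes of the same sign in all 6 arms. The probe of 19 nucleotides for miR-126-3p had median raw spot signals of 15636 and 15945 with vehicle and of 5005 and 7459 with CL, and its log2 change was −1.42 against −1.25 for the probe of 18 nucleotides. The 3 probes of miR-139-5p, of 15, 16 and 17 nucleotides, changed by −1.09, −1.26 and −1.36. Within these arms the longer probes thus showed the larger decrease, as they did at miR-126-5p, where the probe of 21 nucleotides changed by −0.90 and that of 20 by −0.64.

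The probes of miR-139-3p differed the most. The probe of 13 nucleotides had median raw signals of 94.1 and 110.0 with vehicle and of 49.98 and 52.8 with CL, a log2 change of −1.19 after normalization. The probe of 14 nucleotides had 76.7 and 93.9 with vehicle and 63.6 and 58.5 with CL, a log2 change of −0.51. By the longer probe alone, miR-139-3p did not pass the unadjusted threshold, with an adjusted p of 0.197 from limma. Negative control spots averaged between 31.7 and 38.6 on the 4 arrays. At miR-221-3p both probes changed by −0.13 and −0.14, and at miR-222-3p by 0.18 and 0.10.

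**Figure D3:**
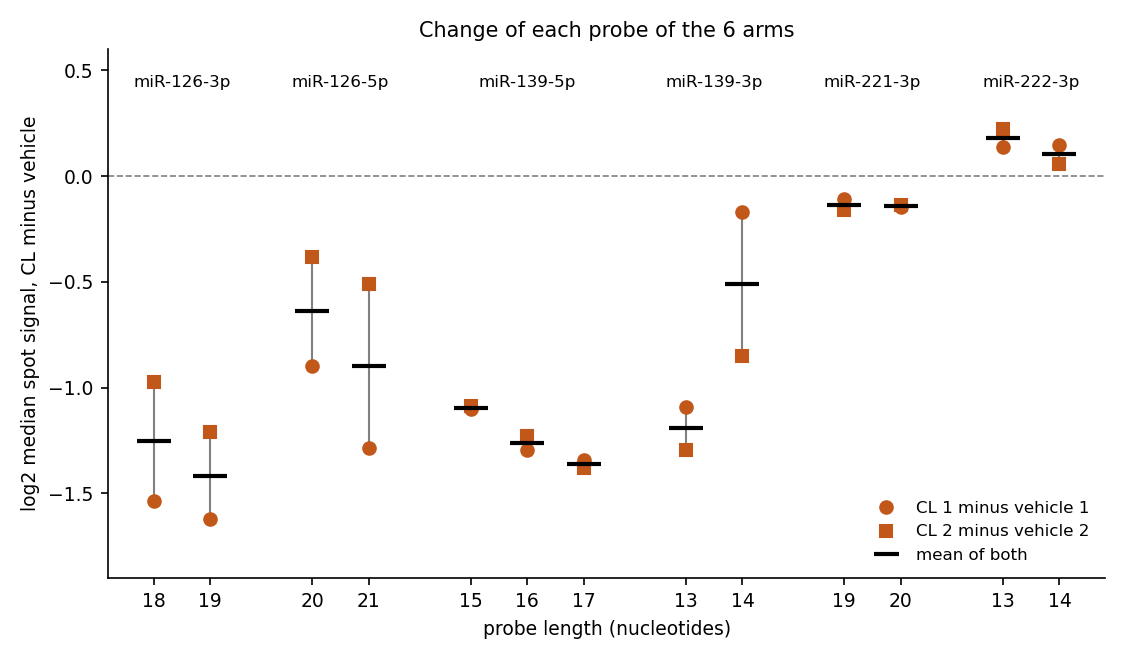
The vertical axis gives the log2 median spot signal of CL minus vehicle for every probe of the 6 arms, by probe length in nucleotides on the horizontal axis, with a circle and a square for the difference within either slide column and a bar for their mean. All probes of miR-126 and miR-139 lie below 0, and the probes of miR-139-3p at −1.19 and −0.51 stand farthest apart within an arm.

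The decrease of the miR-126 and miR-139 arms was set beside 28 other miRNAs studied in blood vessel growth. Of these, 27 were tested, and miR-31-5p was detected on no array. At an unadjusted p of 0.05 in limma, 5 fell and 5 rose of the 27, beside 16.2% and 18.8% of all tested miRNAs, and their median log2 change of −0.017 was close to that of all tested miRNAs. With the slide column as a block, 3 fell and 3 rose at an adjusted p of 0.05 in limma, beside 9.41% and 10.8%. Both shares were near those of all tested miRNAs.

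The miRNAs that fell at the unadjusted threshold were miR-10b-5p and miR-10a-5p, which lie in Hox gene clusters, miR-322-5p of the miR-15 and miR-16 seed family, and miR-23b-3p and miR-24-3p, which are made from a shared cluster. Their log2 changes were −1.31, −0.69, −1.0003, −0.59 and −0.42. Those that rose were miR-218-5p, which acts in Slit and Robo signalling, by 1.12, miR-19a-3p and miR-18a-5p of the miR-17-92 cluster by 0.82 and 0.56, miR-100-5p by 0.72, and the hypoxia-induced miR-210-3p by 0.36. Within the miR-17-92 cluster, miR-17-5p at 0.022 and miR-92a-3p at −0.16 did not pass the threshold.

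**Figure D4:**
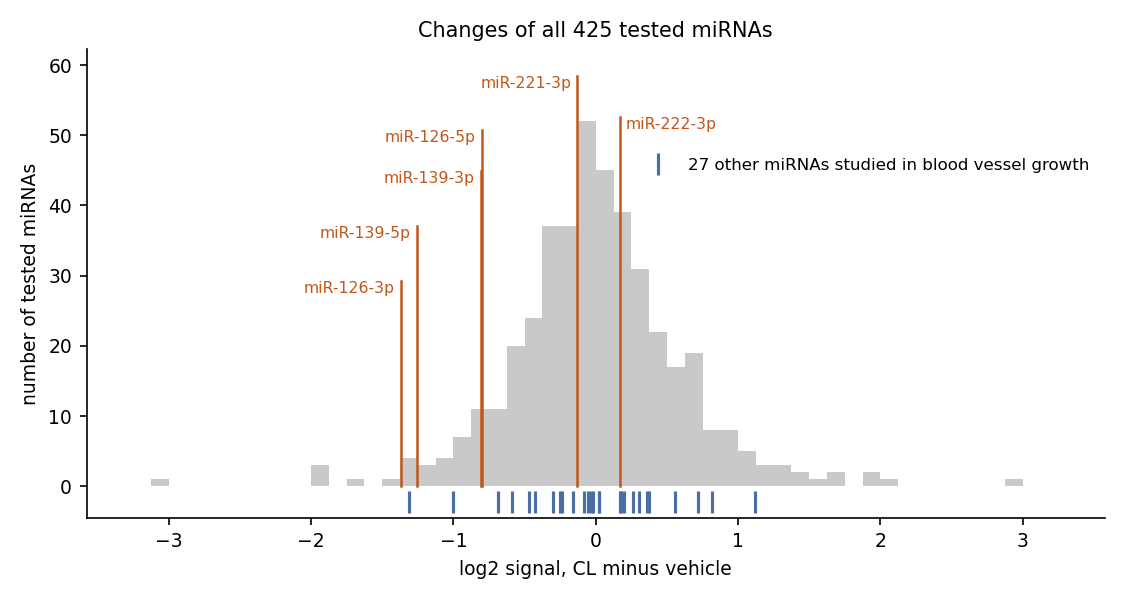
Grey bars count the 425 tested miRNAs by their log2 signal of CL minus vehicle, vertical lines mark the 6 arms, and the blue ticks under the axis mark 27 other miRNAs studied in blood vessel growth. The miR-126 and miR-139 arms lie between −1.37 and −0.80, miR-221-3p and miR-222-3p lie near the centre, and the blue ticks spread from −1.31 to 1.12.

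Patterns most like that of miR-126-3p over the 4 arrays, by Euclidean distance of log2 signals after removing each miRNA's mean, were those of miR-322-5p (distance 0.371), miR-10b-5p (0.373), miR-5107-5p (0.456) and miR-338-3p (0.504). These had log2 changes of −1.0003, −1.31, −1.20 and −0.98. For miR-221-3p they were miR-3963, miR-6352, miR-669f-3p and miR-664-5p, at distances of 0.0142 to 0.0606, with log2 changes between −0.15 and −0.093. The 6 arms themselves were left out of this search.

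Marker miRNAs of the other cells of an SVF moved in the same arrays, and their part in the result was not tested. The endothelial list held both miR-126 arms alone, both lower. Of the mural list, which stands for smooth muscle cells and pericytes, 2 of 4 members were tested. The log2 change was −0.75 at miR-145a-5p, which passed the unadjusted threshold in limma, and −0.43 at miR-143-3p, which did not, with an adjusted p of 0.158 from limma. Their log2 summed level ranged from 9.07 to 9.31 in the vehicle arrays and from 8.62 to 8.73 in the CL arrays.

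Fibroblast and red cell miRNAs moved otherwise, and the leukocyte list was mixed. Of the 5 fibroblast miRNAs, 4 rose at the unadjusted threshold, beside 18.8% of all tested miRNAs. Their log2 changes ran from 0.95 at miR-214-3p to 1.48 at miR-199b-5p. The log2 summed level of the list was 10.99 to 11.74 in vehicle and 12.60 to 12.63 in CL arrays. All 3 red cell miRNAs tested of 4 listed rose at this threshold, beside the same 18.8%. The log2 changes were 2.98 at miR-144-3p, 0.92 at miR-144-5p and 0.73 at miR-451a. Summed levels were 13.00 to 13.22 in vehicle and 13.80 to 14.05 in CL arrays. Of the 7 leukocyte miRNAs, miR-142-3p and miR-142-5p, arms of a single hairpin, rose by 2.09 and 1.95. The lymphocyte miRNA miR-150-5p fell by 0.89. The others, miR-223-3p, miR-155-5p, miR-146a-5p and miR-342-3p, did not pass the threshold, with log2 changes from −0.057 to 0.10. Summed levels of this list were 11.14 to 11.47 in vehicle and 11.92 to 11.95 in CL arrays. Vehicle 2 was well below vehicle 1 at miR-142-3p (9.32 and 7.70), miR-142-5p (7.19 and 5.85), miR-144-3p (7.77 and 6.41) and miR-199b-5p (10.48 and 9.44). It was not below at miR-144-5p (5.34 and 5.42) and miR-451a (12.96 and 13.20). The leukocyte member miR-155-5p is also among the 28 vessel miRNAs. Muscle miRNAs gave no call among 3, and of 7 epithelial miRNAs, 5 were detected on no array, miR-203-3p fell by 0.36 and miR-200b-3p, at 0.24, did not pass the threshold.

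**Figure D5:**
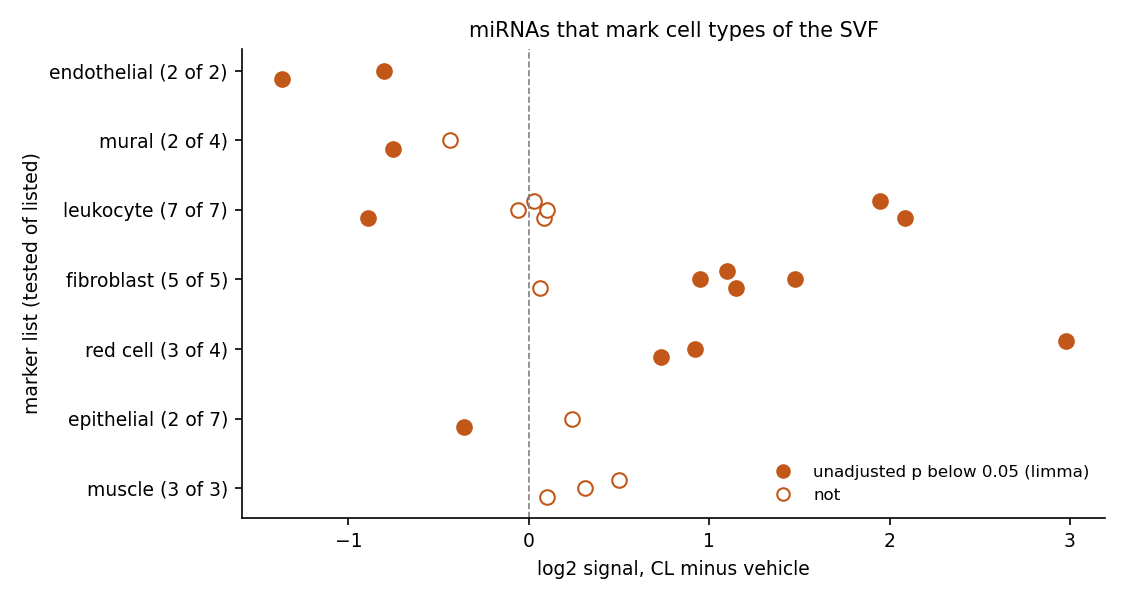
The horizontal axis gives the log2 signal of CL minus vehicle for each tested miRNA of 7 marker lists on the vertical axis, filled where limma gave an unadjusted p below 0.05. Endothelial and mural miRNAs lie left of 0, and 4 of 5 fibroblast and all 3 red cell miRNAs are filled and right of 0, up to 2.98 at miR-144-3p.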

How the data were processed

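The authors deposited Feature Extraction 10.7.1.1 scanner files with the linear intensity of each spot, and a log2 table they describe as normalized, whose values were used as an alternative. Its columns have medians of −3.31 to −3.20, the lowest value of each array, and how it was normalized in detail is not given in the sources used here. Robust multi-array analysis and SAM are the procedures named in the methods. From the deposited intensity, limma 3.58.1 in R 4.3.3 corrected the mean signal of all spots by normexp (offset 0, no local background). Control and outlier spots (3.53 to 5.11% of miRNA spots) were removed, the remaining signals were brought to equal quantiles, and median polish over its spots gave the log2 signal of a miRNA. Tests covered the 425 miRNAs that the scanner software detected in every array of vehicle, of CL or of both (lmFit, eBayes, two-sided, Benjamini-Hochberg). In data simulated for this comparison, with 50 of 425 miRNAs changed by 1 log2 unit, 63.9% were recovered at an adjusted and 91.4% at an unadjusted p of 0.05. The simulated noise was independent between arrays and miRNAs, with no deviation shared across an array or a slide column. These shares therefore need not hold for the real arrays, where the smallest adjusted p in limma was 0.088. The number of arrays limits the precision. Arrays of equal number deviated together with a correlation of 0.121 across miRNAs. That number is also the slide column, so the block is reported. The labels do not say that equal numbers pair the pools. The labels describe subcutaneous injection and the methods intraperitoneal injection. Named were the 6 arms, their partner arms, listed angiogenesis and marker miRNAs, seed sharers and the 4 nearest patterns. Members and lists were chosen with earlier results of these data known.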

Additional observations from a re-analysis of the deposited data

How the results depend on the processing

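All 6 arms kept the sign of their change under all 22 alternatives, with log2 changes from −1.81 to −1.18 at miR-126-3p, −1.20 to −0.49 at miR-126-5p, −1.50 to −0.97 at miR-139-5p, −1.25 to −0.43 at miR-139-3p, −0.41 to −0.085 at miR-221-3p and 0.084 to 0.36 at miR-222-3p. The 4 differences between arms kept their sign under the 9 alternatives run for them, with ranges of −1.73 to −1.09 for miR-126-3p and miR-221-3p, −0.87 to −0.32 for the miR-126 arms, −0.85 to −0.24 for the miR-139 arms and −0.77 to −0.22 for miR-221-3p and miR-222-3p. Part of this stability was fixed in advance. Other choices of tested miRNAs, the intensity trend, SAM, the methods' t-test and the replicate block reuse the log2 changes of the main values. Leaving out an array cannot turn a sign where the groups do not overlap, as at the 6 arms and the 4 differences. With the linear trend on probe composition and length removed, miR-221-3p (−0.41, adjusted p = 0.113) and miR-222-3p (0.36, adjusted p = 0.113) passed the unadjusted threshold in limma. The cause of the following changes in counts was not tested. Against 0 miRNAs and 0 of the 6 arms past an adjusted p of 0.05 in limma, no normalization gave 64 and 4, median centring 44 and 2, an intensity trend 2 and 1, the replicate block 86 and 4, and the probe trend removed 51 and 3. The scanner's total per miRNA gave 26 and 0, and the deposited values gave 7 and 0. Median polish to convergence with the replicate block, added after seeing the data, gave 130 and 4. At an unadjusted p of 0.05, the 149 miRNAs became 91 with median centring, 60 with SAM and 52 with the methods' t-test, and the 4 lower arms became 2 with either of the latter and 3 with the deposited values or the longest probe alone. Leaving out each array gave 1 (without vehicle 2) to 229 (without vehicle 1) miRNAs and 0 to 3 arms at the adjusted threshold. At the unadjusted one it gave 61 (without CL 1) to 262 (without vehicle 1) miRNAs and 2 to 4 arms, and without CL 1 only miR-126-3p and miR-139-5p passed. The lone array was taken to vary like the other group. Without normalization the median of all tested miRNAs shifted to −0.12. Signal near background limits miR-139-3p. On CL 1, 33 of 40 spots of miR-126-5p and 37 of 40 of miR-139-5p were well above background. All 40 spots of miR-222-3p were so on every array, but its probes had low median raw signals, from 60.7 to 92.4. How far low signal shrank the changes of these arms was not tested.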
